A study of Mus musculus with 12 samples.

Results

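The 10 imprinted growth genes H19, Igf2, Peg10, Sgce, Peg3, Meg3, Dlk1, Mest, Plagl1 and Cdkn1c were followed in thymic tissue of mice that carried mutant MYC. They were chosen by symbol from the 24478 gene symbols of the tables, and the value of each was its transcript row with the most reads over the 12 libraries. RNA with poly(A) tails was sequenced from 4 groups of 3 libraries. Control thymus was labelled as T lymphocytes that express endogenous MYC only. The lymphomas were spontaneous tumours of the thymus, labelled as T lymphocytes that express only an ectopic MYC mutant, either MYCT58A or MYCS62A. Both mutants carry an alanine at a residue that is phosphorylated in normal MYC and bears on how long the protein lasts. The last group was the thymic mass found in splenomegaly of MYCS62A mice. Its cells, by the labels, were T and B lymphocytes with ectopic MYCS62A beside endogenous MYC. Strain, age, sex and the promoter that drives the ectopic MYC are not given in the labels used here. Whether each library is a separate animal is not stated, so a p-value measures the spread between libraries, which may be technical.

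Imprinted genes are expressed mainly from the copy of 1 parent, because methylation set in the germ line differs between the parental copies. Many of them govern growth before birth and are switched down in most tissues afterwards. Genes expressed from the father's copy often promote growth, as Igf2 does, and genes expressed from the mother's copy often restrain it, as H19 and Cdkn1c do. Imprinted genes lie in clusters, and members of a cluster can share control elements. H19 and Igf2 share an imprinting control region and enhancers, Peg10 and Sgce share a differentially methylated region at their adjoining starts, and Dlk1 and Meg3 lie in a further cluster. RNA levels of the tables do not tell the parental copies apart.

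All 10 genes had rows in the tables, and all 10 passed the filter on low counts. The filter asked for 0.588 CPM in at least 3 libraries. Dlk1 passed only through the 3 controls, and Peg10 through the lymphomas, since beside all 6 of them 1 control reached that level. Reads summed over genes ranged from 9577372 to 22437968 per library. CPM is a gene's read count scaled to a common library size with TMM factors. FPKM, deposited by the authors, also divides by transcript length and is used here wherever levels of different genes are compared. A gene was called changed when its adjusted p from edgeR's quasi-likelihood test over 15606 genes was under 0.05. Because the genes were listed with earlier results of these data known, their folds and p-values are descriptions of these libraries and no independent evidence.

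Libraries of a group were not alike. S62A lymphoma 3 stood apart from the other lymphomas, with Cd3e, a subunit of the T cell receptor complex, at 21.7 CPM against 93.7 to 196 CPM in the other lymphomas. Xist, the RNA that silences an X chromosome in females, was at 1294 CPM in T58A lymphoma 1 and 2258 CPM in S62A lymphoma 3, and at 0.934 to 61.8 CPM in the other 4 lymphomas. It was at 2.6 to 4.9 CPM in control thymus and at 780, 37.9 and 1013 CPM in the splenomegaly masses. Ddx3y, a Y-linked gene, ran the opposite way, at 6.24 and 1.73 CPM in the lymphomas with high Xist and 122 to 228 CPM in every library with low Xist. Summed markers of the whole T cell list fell from 15004 to 15055 CPM in controls to 7856 to 10452 CPM in lymphomas and 1323 to 1458 CPM in splenomegaly masses. In such bulk tissue, fewer cells of a type and less RNA per cell cannot be told apart.

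H19 and Igf2 were above the controls in every lymphoma. H19 is a long noncoding RNA expressed from the mother's copy, and its row (NR_130973) lies on chromosome 7 from 149761435 to 149764051 on the minus strand of mm9. It stood at 60.0, 57.2 and 27.1 CPM in controls. It reached 5792, 741 and 989 CPM in T58A lymphomas and 213, 549 and 4730 CPM in S62A lymphomas. All 6 lymphomas lay above all 3 controls. In T58A lymphoma 1, H19 held more reads than any other gene and 0.584% of all reads, and in S62A lymphoma 3 it ranked second with 0.46%. The splenomegaly masses held 11.2, 0.421 and 2.39 CPM, all below the controls. The fitted log2 fold change against control was 5.70 ± 1.39 (SE, n = 3 and 3, edgeR adjusted p = 0.00881) in T58A lymphomas and 5.25 ± 1.36 (adjusted p = 0.00964) in S62A lymphomas. In splenomegaly masses it was -3.29 ± 1.29, which missed the threshold (edgeR adjusted p = 0.0529) and passed it under 10 of the alternatives, as with DESeq2 (-3.32, adjusted p = 0.022).

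**Figure D1:**
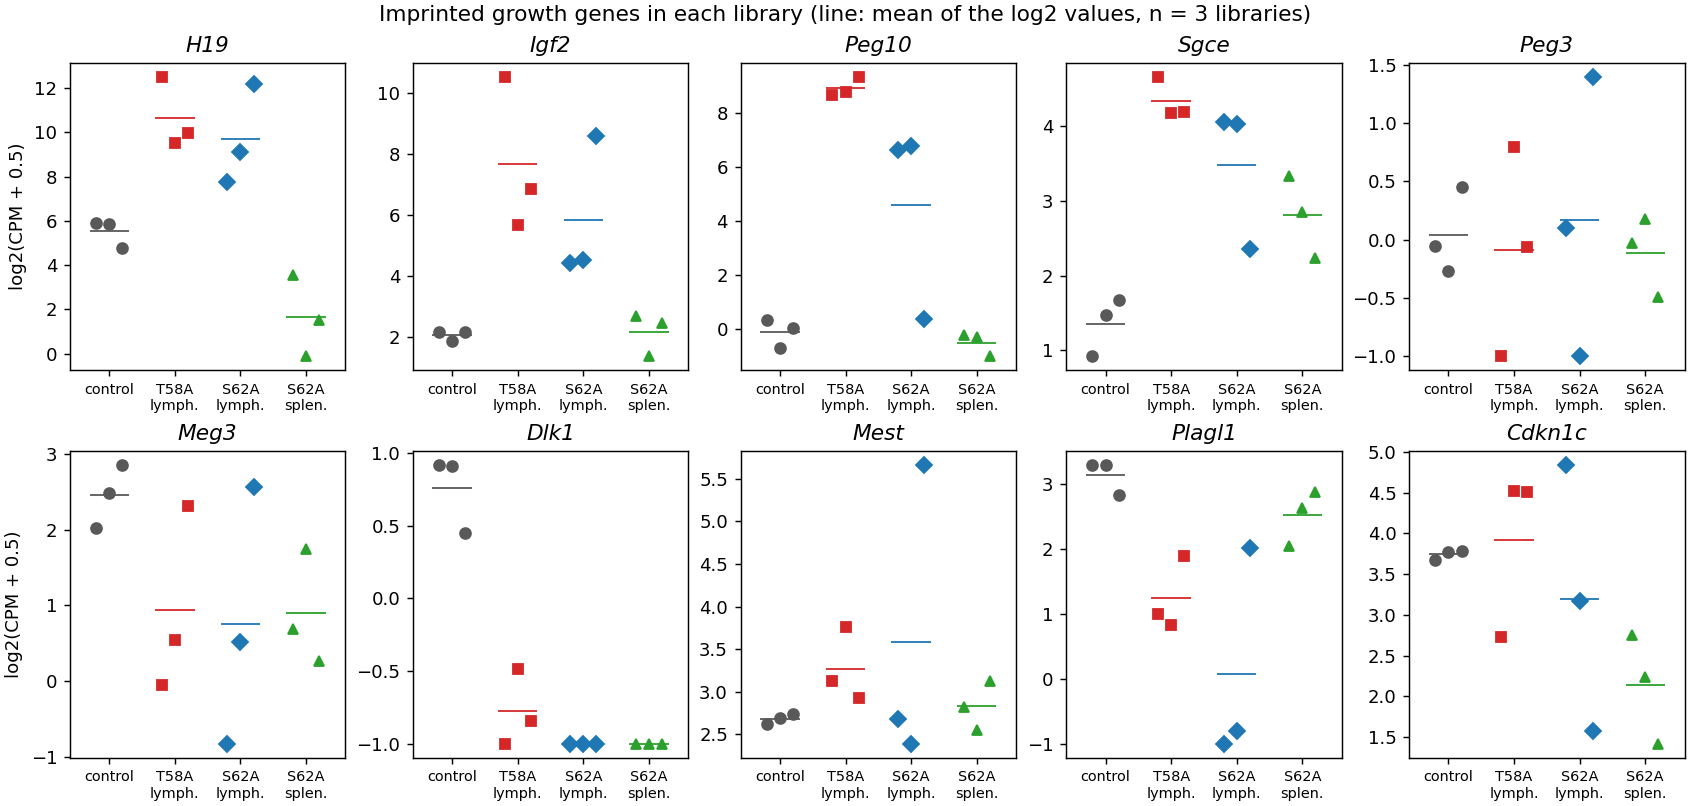
Level of each of the 10 genes in every library, as log2(CPM + 0.5) on a scale of its own for each gene, with points for libraries and a line at the mean of 3. H19, Igf2 and Peg10 span the widest ranges, and S62A lymphoma 3, the right-hand blue diamond, differs from the other S62A lymphomas in Peg10, Mest and Plagl1.

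H19 hosts a microRNA, miR-675, which is cut from its first exon. The row of the hairpin gene Mir675 held 0.516, 0.716 and 0.346 CPM in controls. It held 33.9, 5.38 and 5.35 CPM in T58A lymphomas, 1.46, 2.37 and 29.7 CPM in S62A lymphomas and no read in the splenomegaly masses. The same libraries, T58A lymphoma 1 and S62A lymphoma 3, were highest for H19 and for Mir675. The hairpin lies within H19 on the same strand, so these reads cannot be told apart from reads of H19 and give no measure of the mature microRNA. The mature sequences of the RefSeq table are shown because this microRNA is the product encoded within H19. Capitals mark the seed, bases 2 to 8, which pairs with targets. The strands have different seeds.
mmu-miR-675-5p: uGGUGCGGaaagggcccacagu
mmu-miR-675-3p: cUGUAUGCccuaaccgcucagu

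Igf2 encodes insulin-like growth factor 2, a fetal growth factor that signals through Igf1r and Insr and is expressed from the father's copy. Its row (NM_010514) spans 149836673 to 149844709 on chromosome 7, 72.6 kb from H19. Controls held 3.97, 3.14 and 4.03 CPM. T58A lymphomas held 1487, 50.4 and 115 CPM, and S62A lymphomas held 21.3, 22.8 and 388 CPM. All 6 lymphomas lay above the controls. The splenomegaly masses, at 6.0, 2.1 and 4.98 CPM, overlapped the controls. The log2 fold change against control was 7.21 ± 1.61 (SE, edgeR adjusted p = 0.0055) in T58A lymphomas and 5.27 ± 1.48 (adjusted p = 0.0143) in S62A lymphomas. It was 0.27 ± 1.37 in splenomegaly masses (edgeR adjusted p = 0.887). Without S62A lymphoma 3 the S62A value was 2.57 and was not called (edgeR adjusted p = 0.0876). The call was also lost without control 2 (5.17, edgeR adjusted p = 0.0536) and on log2(FPKM + 1) (3.02, limma adjusted p = 0.06).

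The order of the 6 lymphomas was the same for both genes. T58A lymphoma 1 was highest, followed by S62A lymphoma 3, T58A lymphoma 3, T58A lymphoma 2, S62A lymphoma 2 and S62A lymphoma 1. Per length, H19 exceeded Igf2 in every lymphoma, with a ratio of deposited FPKM between 7.2 and 44.4. In controls this ratio lay between 12.4 and 33.7. In splenomegaly masses it was 3.45, 0.369 and 0.885. The spread within a lymphoma group was wide. From the lowest to the highest T58A lymphoma, Igf2 ranged over 4.87 log2 units, against a median of 0.55 for all genes tested. For H19 in S62A lymphomas the range was 4.47 log2 units, against a median of 0.62.

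**Figure D2:**
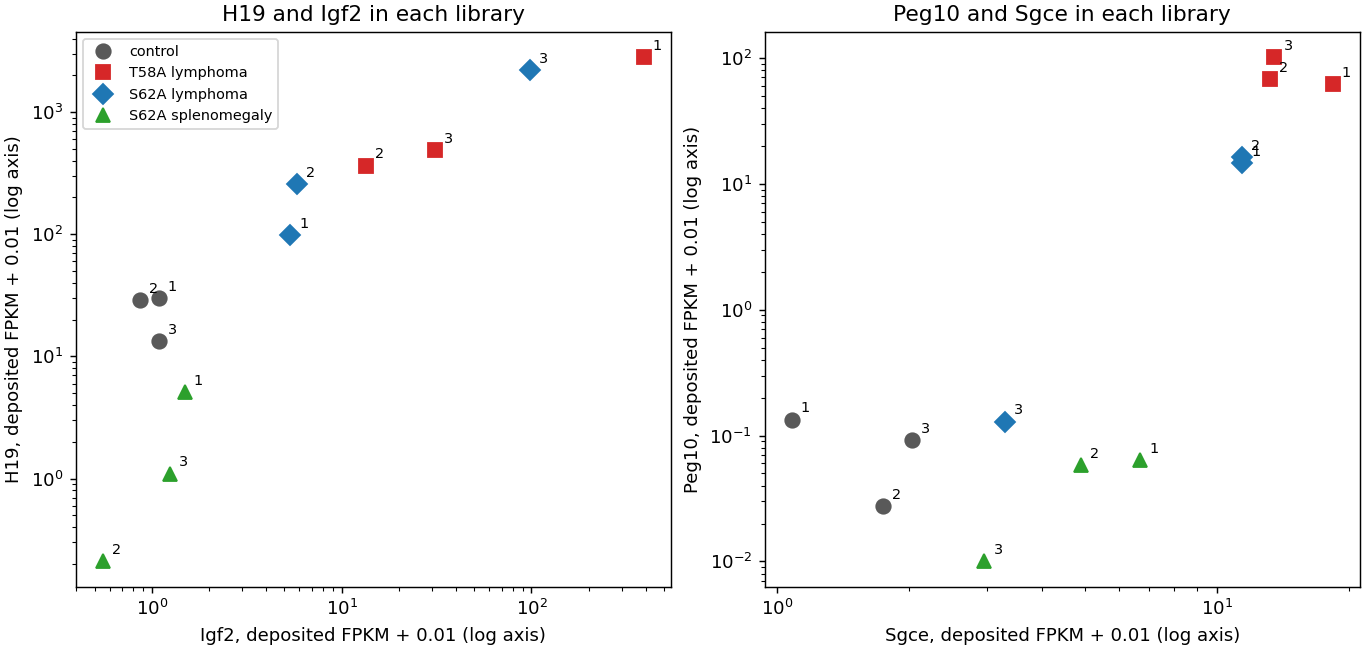
Deposited FPKM of H19 against Igf2 (left) and of Peg10 against Sgce (right), each on log axes with 0.01 added, with 1 point for each library and its replicate number. H19 and Igf2 put the lymphomas in 1 order, and S62A lymphoma 3 is at 2207 FPKM of H19 and 0.119 FPKM of Peg10.

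The lymphomas highest in H19 and Igf2 were the same as those with high Xist, and the part of Xist status in this was not tested. A fit was also made with only the libraries that had low Xist and high Ddx3y, 4 lymphomas and all controls among them. This choice was made after the data were seen. It leaves out T58A lymphoma 1 and S62A lymphoma 3, the lymphomas highest in H19 and Igf2. Its smaller spread comes with that choice, so it is no test of Xist status. In this fit the log2 fold change of H19 against control was 4.16 ± 0.5 in T58A lymphomas and 2.98 ± 0.48 in S62A lymphomas. For Igf2 the values were 4.47 ± 0.37 and 2.56 ± 0.35. The splenomegaly masses with high Xist held 11.2 and 2.39 CPM of H19, and the mass with low Xist held 0.421 CPM. The fibroblast list, 13 genes of cells that can express imprinted genes, summed to 290 to 345 CPM in controls, 560 to 2010 CPM in T58A lymphomas and 426 to 1386 CPM in S62A lymphomas. In the splenomegaly masses, where H19 was below the controls, the list summed to 553 to 887 CPM. None of its 13 genes was at 0 in any group. T58A lymphoma 1 was the lowest of its group in this sum, at 560 CPM, and the highest in H19. S62A lymphoma 3 was the highest of its group in both, with 1386 CPM in this sum. The part of stromal cells in the levels was not tested.

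**Figure D3:**
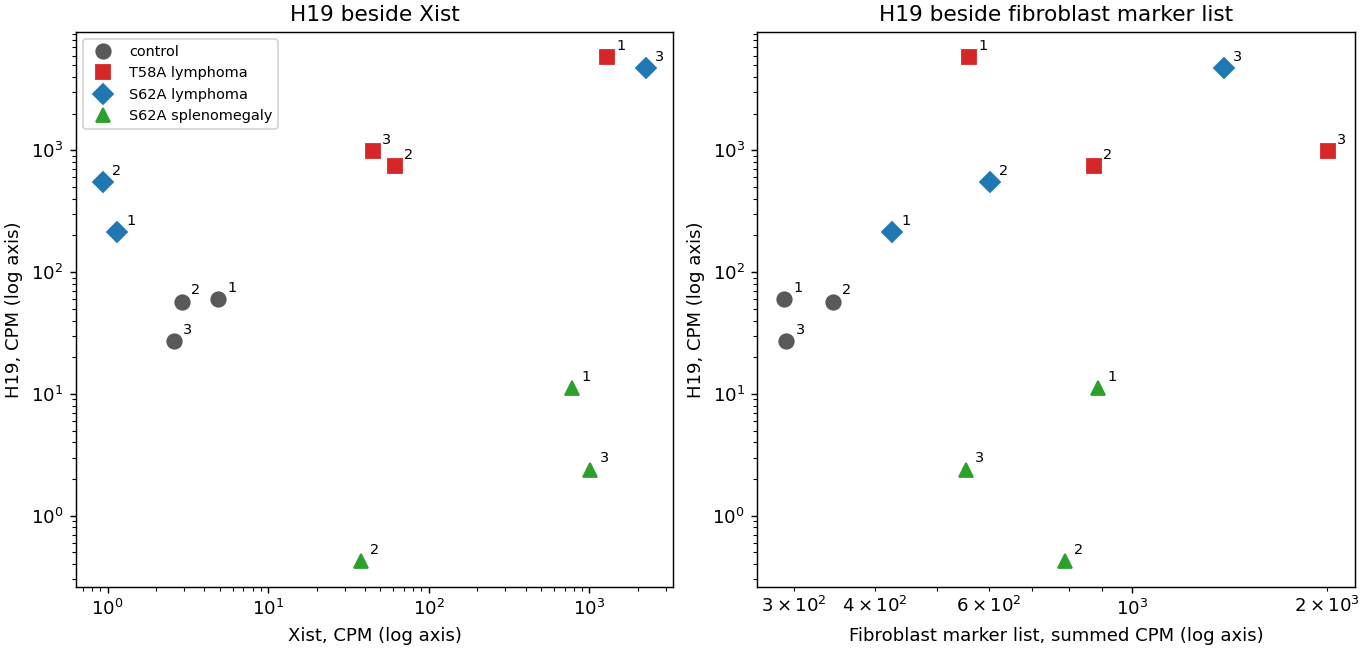
H19 in CPM against Xist in CPM (left) and against the summed CPM of the fibroblast list (right), on log axes, with 1 point for each library and its replicate number. T58A lymphoma 1 and S62A lymphoma 3 are highest in H19 and in Xist among lymphomas. Splenomegaly masses 1 and 3 have high Xist with H19 at 11.2 and 2.39 CPM, and mass 2 has low Xist with H19 at 0.421 CPM.

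Igf2 is transcribed from several promoters. The tables hold 5 Igf2 rows. Of these, 4 held 34750 to 35609 reads over the 12 libraries, with close counts in every library, and NM_001315489 held 15625. Use of a promoter cannot be read from these rows. RefSeq gives 4 promoter windows for Igf2 on GRCm38.p6, and the distances between their starts, 1308, 3775 and 9320 bases from the first, equalled the distances between the transcript starts on mm9. The 250 bases before the start of NM_010514, the row used, hold 22 CG pairs, and fewer stood in 85.2% of the 32851 windows of the table. The window for NM_001122737 and NM_001315489 holds 6, which is the median of all windows. Both are shown because they precede the most read row and the start farthest downstream. They lie on the minus strand of chr7:142658805-142659054 and chr7:142657497-142657746, in that order.
Igf2 NM_010514: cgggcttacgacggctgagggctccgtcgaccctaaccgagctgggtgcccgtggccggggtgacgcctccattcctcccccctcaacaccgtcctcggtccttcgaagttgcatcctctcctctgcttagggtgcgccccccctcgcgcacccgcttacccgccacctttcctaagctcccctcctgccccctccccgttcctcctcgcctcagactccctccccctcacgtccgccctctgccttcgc
Igf2 NM_001122737: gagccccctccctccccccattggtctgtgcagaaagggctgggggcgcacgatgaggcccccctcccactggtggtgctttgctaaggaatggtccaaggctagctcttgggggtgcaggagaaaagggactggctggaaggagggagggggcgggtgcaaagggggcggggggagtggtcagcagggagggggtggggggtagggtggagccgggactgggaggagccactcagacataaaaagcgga

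The windows of the table were searched on both strands for 3 motifs. These were CACGTG, the E-box that MYC and MAX can bind, TATAAA, the TATA box, and TGCCGC, a core of the site read by the methylation-sensitive imprint protein Zfp57. None of the 4 Igf2 windows holds any of them. Among the other windows found for the 10 genes, TGCCGC stood in windows of Mest, Meg3 and Plagl1, TATAAA in a Meg3 window and CACGTG in that of Plagl1. Over all 32851 windows of the same length, 6.021% hold CACGTG, 12.368% hold TATAAA and 8.676% hold TGCCGC. A match describes letters and no bound site.

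Peg10 and Sgce start 101 bases apart on chromosome 6 and are read in opposite directions. Peg10, an imprinted gene that descends from a retrotransposon and is needed for the mouse placenta, spans 4697306 to 4710516 (NM_001040611, plus strand). Controls held 15, 2 and 12 reads, or 0.774, 0.11 and 0.52 CPM. T58A lymphomas held 400, 431 and 636 CPM. S62A lymphomas 1 and 2 held 99.0 and 108 CPM, while S62A lymphoma 3 held 0.8 CPM from 12 reads, just above the highest control. The splenomegaly masses held 0.371, 0.315 and 0 CPM. The log2 fold change against control was 9.98 ± 1.46 (SE, edgeR adjusted p = 0.000484) in T58A lymphomas and 7.16 ± 1.35 (adjusted p = 0.0017) in S62A lymphomas. It was -1.01 ± 2.05 in splenomegaly masses (edgeR adjusted p = 0.708). Since Peg10 passed the filter through the lymphomas, a difference of these from the other groups was built into its selection. The range of 6.38 log2 units among S62A lymphomas was wider than that of 99.9% of the genes tested.

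Sgce, the gene of the membrane protein epsilon-sarcoglycan, spans 4624350 to 4697204 (NM_001130188, minus strand). It held 1.39, 2.26 and 2.69 CPM in controls, 24.8, 17.6 and 17.8 CPM in T58A lymphomas and 16.1, 15.9 and 4.6 CPM in S62A lymphomas. S62A lymphoma 3 was lowest of the lymphomas for both genes. Unlike Peg10, Sgce was also above every control in the splenomegaly masses, at 9.6, 6.73 and 4.21 CPM. The log2 fold change against control was 3.24 ± 0.51 (SE, edgeR adjusted p = 0.000717) in T58A lymphomas, 2.52 ± 0.49 (adjusted p = 0.00212) in S62A lymphomas and 1.69 ± 0.49 (adjusted p = 0.0137) in splenomegaly masses. The last call was lost without control 1 (1.46, edgeR adjusted p = 0.0587) or without splenomegaly mass 1 (1.4, adjusted p = 0.0518). The ratio of Peg10 to Sgce in deposited FPKM was 3.38, 5.12 and 7.47 in T58A lymphomas and 1.29, 1.42 and 0.0364 in S62A lymphomas. In controls it was 0.0102 to 0.116, so levels of the adjoining genes did not keep 1 proportion.

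Plagl1, Cdkn1c and Mest passed the test in none of the 6 comparisons as reported. Plagl1 encodes a zinc finger protein that restrains growth and regulates other imprinted genes, Igf2 among them. It spans 12810594 to 12851501 on chromosome 10 (NM_009538). Controls held 9.24, 9.31 and 6.58 CPM, T58A lymphomas 1.5, 1.28 and 3.22 CPM and S62A lymphomas 0, 0.0718 and 3.53 CPM. All 6 lymphomas lay below all controls, and the edgeR adjusted p-values were 0.158 and 0.0645. Splenomegaly masses held 3.61, 5.68 and 6.81 CPM. Without S62A lymphoma 3, Plagl1 was called lower than control in S62A lymphomas (log2 fold change -7.66, edgeR adjusted p = 0.000138) and in T58A lymphomas (-2.06, adjusted p = 0.00662). With all libraries it was also called lower in S62A lymphomas by DESeq2 (-2.83, adjusted p = 0.0225), limma voom (-5.93, adjusted p = 0.000974) and limma on log2(FPKM + 0.1) and log2(FPKM + 1) (adjusted p = 0.0046 and 0.00211). In T58A lymphomas it was called by voom (-2.33, adjusted p = 0.00507), with only the 2 groups compared (-2.04, edgeR adjusted p = 0.00963) and on log2(FPKM + 1) (-0.97, limma adjusted p = 0.00817). The RefSeq window before the Plagl1 start is shown because, of the windows found for 6 of the 10 genes, it is the only one with CACGTG. It also holds the reverse complement of TGCCGC, and capitals mark both. It lies on the plus strand of chr10:13090582-13090831 on GRCm38.p6.
Plagl1: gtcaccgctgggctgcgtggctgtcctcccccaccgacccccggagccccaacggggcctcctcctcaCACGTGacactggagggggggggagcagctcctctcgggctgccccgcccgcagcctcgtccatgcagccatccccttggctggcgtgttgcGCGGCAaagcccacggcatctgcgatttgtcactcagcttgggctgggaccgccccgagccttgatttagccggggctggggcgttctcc

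Cdkn1c encodes p57, an inhibitor of cyclin-dependent kinases expressed from the mother's copy. It spans 150644244 to 150646955 on chromosome 7 (NM_001161624), 800 kb from Igf2. Controls were close to each other at 12.3, 13.1 and 13.3 CPM. T58A lymphomas held 6.12, 22.4 and 22.3 CPM, S62A lymphomas held 28.2, 8.48 and 2.47 CPM and splenomegaly masses held 6.26, 4.21 and 2.17 CPM. Lymphomas fell on both sides of the controls in both groups, while the splenomegaly masses lay below them. Splenomegaly masses against T58A lymphomas gave a log2 difference of -2.0 ± 0.76, which was not called (edgeR adjusted p = 0.0506). It was called with library size only (-2.09, edgeR adjusted p = 0.0419), by DESeq2 (-1.94, adjusted p = 0.0169), by limma voom (-2.04, adjusted p = 0.0337) and with only the 2 groups compared (edgeR adjusted p = 0.0305). It was also called without T58A lymphoma 1, S62A lymphoma 1 or S62A lymphoma 3, and with low-Xist libraries only. Masses against control gave -1.61 ± 0.75 (edgeR adjusted p = 0.0976), called by voom (-1.86, adjusted p = 0.0149), with only the 2 groups compared (-1.58, edgeR adjusted p = 0.00624) and without S62A lymphoma 1 or 3. Of its relatives, Cdkn1a, the gene of the kinase inhibitor p21, rose from 30.5 ± 4.66 CPM (SD, n = 3) in controls to 384 ± 143 in T58A and 278 ± 163 CPM in S62A lymphomas (edgeR adjusted p = 9.37e-05 and 0.000138).

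Mest, a gene expressed from the father's copy and related to hydrolase enzymes, spans 30688053 to 30698466 on chromosome 6 (NM_001252292). Its levels were 5.68, 5.95 and 6.19 CPM in controls, 8.2, 13.1 and 7.08 CPM in T58A lymphomas and 6.58, 5.36 and 8.21 CPM in splenomegaly masses. S62A lymphomas held 5.92, 4.74 and 50.3 CPM. The high value is that of S62A lymphoma 3, and the log2 fold change of 1.77 ± 0.74 (edgeR adjusted p = 0.0703) turned to -0.16 without it. Without S62A lymphoma 1 or 2 it was 2.21 or 2.24 and was called (edgeR adjusted p = 0.0273 and 0.0214). Mest overlaps Copg2 on the opposite strand. Copg2 held 15313 reads over the 12 libraries and Mest 2078, and the strand setting of the counting is not given in the sources used here.

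Dlk1, Meg3 and Peg3 were low throughout. Dlk1, a transmembrane relative of Notch ligands that restrains differentiation, spans 110691665 to 110701546 on chromosome 12. It held 27, 25 and 20 reads in controls, 0, 4 and 1 reads in T58A lymphomas and none in S62A lymphomas or splenomegaly masses. It was called lower than control in T58A lymphomas (log2 fold change -3.61 ± 0.99, edgeR adjusted p = 0.0265), but not under 7 of the alternatives, each single control left out among them (adjusted p = 0.0531 to 0.315). A floor of 3 counts over the group makes it at least 17.7-fold lower in S62A lymphomas and at least 16.9-fold lower in splenomegaly masses (edgeR adjusted p = 0.00606 and 0.00535). Since Dlk1 passed the filter only through the controls, it had to differ from them. The list of thymic epithelium markers summed to 2958 to 3273 CPM in controls and to 78.3 to 289 CPM in all other libraries. None of its 14 genes was at 0 in any group, and the part of these cells in the Dlk1 level was not tested.

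Meg3, a long noncoding RNA expressed from the mother's copy 77.7 kb from Dlk1, held 3.56, 5.12 and 6.76 CPM in controls (NR_027652, 110779206 to 110809939). T58A lymphomas held 0.462, 0.959 and 4.49 CPM, S62A lymphomas 0.0636, 0.934 and 5.4 CPM and splenomegaly masses 1.11, 2.84 and 0.702 CPM. In both lymphoma groups replicate 3 lay within the range of the controls and the others below it. No comparison of Meg3 passed the test as reported. Without S62A lymphoma 3 it was called lower than control in S62A lymphomas (-3.37, edgeR adjusted p = 0.0442), and with only the 2 groups compared in splenomegaly masses (-1.75, edgeR adjusted p = 0.0229). Its level depends on the transcript row. S62A lymphoma 1 held 1 read of the row used and 15 of NR_003633, and T58A lymphoma 1 held 8 and 13. With the rows summed, the log2 fold changes against control were -1.05, -1.03 and -1.95 in T58A lymphomas, S62A lymphomas and masses, and none was called (edgeR adjusted p = 0.42, 0.406 and 0.125). Peg3, a zinc finger gene expressed from the father's copy, spans 6658671 to 6683130 on chromosome 7 and lies far from H19. It ranged from 0 to 2.13 CPM over the 12 libraries, with at most 32 reads in any library, and no comparison passed the test.

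**Figure D4:**
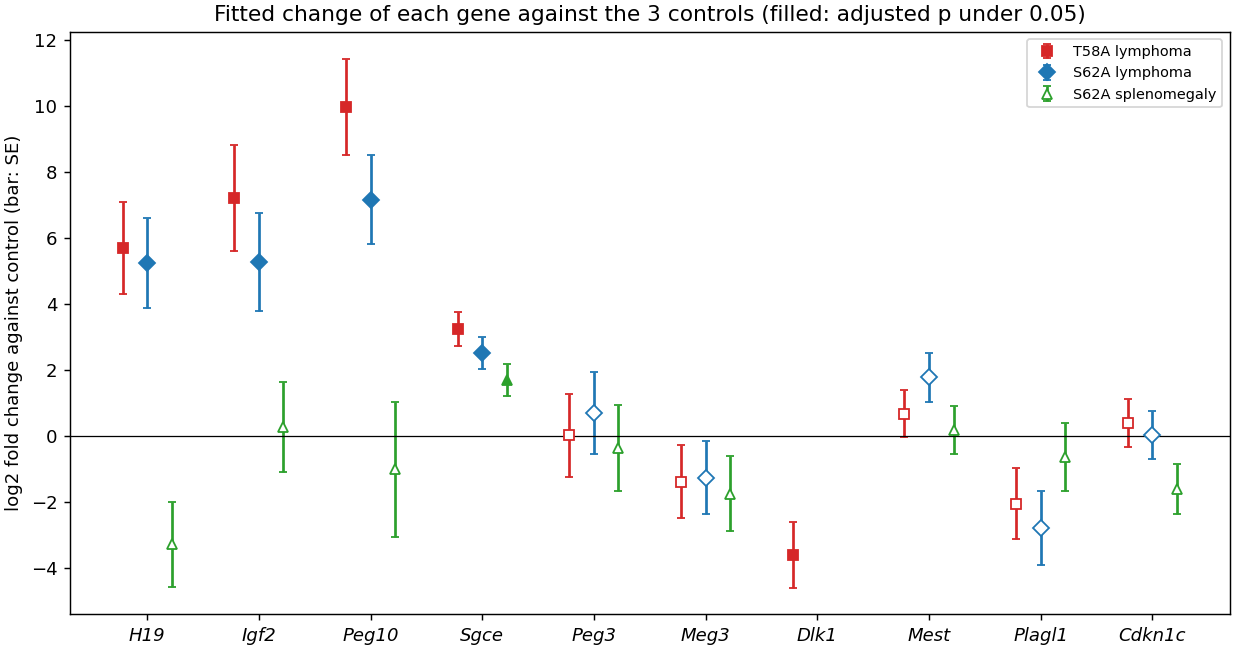
Fitted log2 fold change against the 3 controls for each gene, with bars of 1 SE, from the fit over all 12 libraries. Filled symbols passed an adjusted p of 0.05, and Dlk1 is drawn for T58A lymphomas only because the other groups had no read.

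Counted over the 10 genes, 4 were called higher (H19, Igf2, Peg10 and Sgce) and 1 lower (Dlk1) in T58A lymphomas than in controls. Of all genes tested, 18.8% were called higher and 17.4% lower there, 36.2% in all. The same genes made the counts of 4 and 1 in S62A lymphomas, where 21.9% of all genes were called higher and 22.2% lower, 44.1% in all. In splenomegaly masses Sgce was called higher and Dlk1 lower, where 22.9% of all genes were higher and 26.3% lower, 49.2% in all. Libraries did not overlap with the controls for 7, 6 and 5 of the 10 genes in these comparisons, against 60.0%, 60.3% and 70.5% of all genes. The genes were chosen with these contrasts known, so nothing is read from the counts. The comparisons share the 3 control libraries. With low-Xist libraries only, a choice made after the data were seen, 6, 7 and 3 of the genes were called, against 35.7%, 43.2% and 34.9% of all genes in that fit. The genes added were Plagl1 in T58A lymphomas, Plagl1 and Meg3 in S62A lymphomas and H19 in the splenomegaly mass, all lower than control.

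Library titles end in a code that starts with a letter. Control 3 and all T58A lymphomas carry the letter H, controls 1 and 2 the letter G, and all S62A samples the letter I, so letter and group cannot be told apart for S62A. Within letter H, with 1 control, Peg10 was called (log2 fold change 9.87, edgeR adjusted p = 0.0155), and H19 (6.54, adjusted p = 0.127), Igf2 (7.1, adjusted p = 0.214) and Sgce (2.91, adjusted p = 0.0551) were not.

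No gene of the 10 was called between S62A and T58A lymphomas by edgeR, by DESeq2 or by limma voom. Of all genes, edgeR called 0.859% higher and 2.29% lower in S62A lymphomas, 3.15% in all. Only 1 of the 10 genes, Peg10, was under 0.05 before adjustment, with a log2 difference of -2.82 ± 1.0 (edgeR adjusted p = 0.13). Peg10 and Sgce did not overlap between these groups, and neither did 21.1% of all genes. The difference was -1.93 ± 1.25 for Igf2 (edgeR adjusted p = 0.375) and -0.45 ± 1.14 for H19 (adjusted p = 0.843). Leaving out S62A lymphoma 3 changed this, as Peg10 (-2.24, edgeR adjusted p = 0.0288) and Plagl1 (-5.6, adjusted p = 0.0233) were then called lower in S62A lymphomas, as 2 of 10 genes against 2.28% of all genes in that fit. With low-Xist libraries only, Igf2 was also called (-1.91 ± 0.39, edgeR adjusted p = 0.0468), and 4.47% of all genes were. Without T58A lymphoma 1 alone the differences turned to 0.80 for Igf2 and 1.08 for H19, and without S62A lymphoma 1 alone that of H19 was 0.07.

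Between splenomegaly masses and S62A lymphomas, H19, Igf2 and Peg10 were called lower in the masses. Of all genes, 25.6% were called higher and 28.6% lower there, 54.3% in all. The log2 differences were -8.54 ± 1.6, -5.01 ± 1.47 and -8.17 ± 1.52 (edgeR adjusted p = 0.00103, 0.0138 and 0.00102). Libraries did not overlap for 4 of the 10 genes, against 58.1% of all genes. Without S62A lymphoma 3, Igf2 stood at -2.3 and was not called (edgeR adjusted p = 0.108). In that fit 5 of the 10 genes were called, 4 lower and Plagl1 higher (7.01, edgeR adjusted p = 0.00014), against 51.3% of all genes. With all libraries, every mass lay above every S62A lymphoma for Plagl1, which was not called (2.15 ± 1.11, edgeR adjusted p = 0.123). It was called higher in masses by limma voom (5.27, adjusted p = 0.00263). On log2(FPKM + 0.1) and log2(FPKM + 1) it was called higher too (limma adjusted p = 0.0134 and 0.0183). Igf2 also missed the threshold without splenomegaly mass 2 (-4.71, edgeR adjusted p = 0.0512) and on log2(FPKM + 1) (-2.99, limma adjusted p = 0.0506). By limma voom neither Igf2 (-3.42, adjusted p = 0.234) nor Peg10 (-8.1, adjusted p = 0.116) was called. Against T58A lymphomas H19, Igf2, Peg10 and Sgce were called lower, where 20.5% of all genes were called higher and 24.6% lower, 45.1% in all. Here 5 of the 10 genes did not overlap, against 56.0% of all genes. Sgce stood at -1.55 ± 0.47 (edgeR adjusted p = 0.0204) and missed the threshold without T58A lymphoma 1 (-1.37, adjusted p = 0.0593), splenomegaly mass 2 (-1.54, adjusted p = 0.0571) or splenomegaly mass 3 (-1.26, adjusted p = 0.0802).

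Neighbours were genes with a row within 300 kb of a member. The tables hold 140 of them, and 31 passed the filter. In T58A lymphomas 13 were called higher and 3 lower, 51.6% of those tested against 36.2% of all genes. The counts were 12 and 6 in S62A lymphomas, 58.1% of those tested against 44.1% of all genes. The neighbours include Mir675 and Igf2os, which overlap H19 and Igf2, so their calls may repeat reads of these members. Nothing is read from these shares. At H19 and Igf2, Igf2os, a transcript antisense to Igf2, stood at 44.4, 1.76 and 3.91 CPM in T58A lymphomas against at most 0.275 CPM in controls (edgeR adjusted p = 0.0263). In S62A lymphomas it was not called. Igf2os had no read in the masses, so it passed the filter through the lymphomas and this difference was built into its selection. Since it overlaps Igf2 rows on the opposite strand, and the strand setting is not given, its reads and those of Igf2 may not be told apart. Not all genes of this region moved that way. Lsp1, a gene of an actin-binding leukocyte protein, fell from 511 ± 6.67 CPM in controls to 65.2 ± 45.4 in T58A and 21.1 ± 3.8 CPM in S62A lymphomas (edgeR adjusted p = 0.000319 and 2.43e-05). Prr33 fell from 26.9 ± 0.489 to 2.32 ± 0.0941 and 0.768 ± 0.227 CPM (edgeR adjusted p = 6.34e-06 and 1.1e-06). Ctsd, the gene of the lysosomal protease cathepsin D, rose from 630 ± 38.9 to 1054 ± 284 and 1142 ± 266 CPM (edgeR adjusted p = 0.0203 and 0.00831).

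Next to Peg10 and Sgce, Ppp1r9a, the gene of an actin-binding protein that is imprinted in mouse placenta, held 22.1, 26.7 and 104 CPM in T58A lymphomas and 2.42 to 4.16 CPM in controls (edgeR adjusted p = 0.00617). It held 16.4, 26.1 and 1.53 CPM in S62A lymphomas, so that S62A lymphoma 3 was again low. Casd1, an enzyme of sialic acid modification, rose from 62.6 ± 1.68 to 103 ± 37.5 and 102 ± 22.8 CPM (edgeR adjusted p = 0.0282 and 0.0257). Col1a2, a collagen gene of fibroblasts on the far side of Casd1, rose from 42.2 ± 4.02 to 289 ± 242 and 179 ± 153 CPM (edgeR adjusted p = 0.00856 and 0.024). Near Cdkn1c, Kcnq1ot1, the noncoding RNA that silences the surrounding cluster on the father's copy, rose from 22.4 ± 5.39 to 89.5 ± 14.7 and 102 ± 33.1 CPM (edgeR adjusted p = 0.000822 and 0.000372).

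The genes whose profiles over the 12 libraries were most like those of the members were found by the smallest root mean square difference of scaled log2 CPM. Symbols that start with Gm and a digit or end in Rik were left out of this search. For H19 the nearest was Sim2, a developmental transcription factor on chromosome 16, at 0.253. The median was 1.41 over all 15605 other genes, with the symbols left out included. Sim2 held 1127, 276 and 195 CPM in T58A lymphomas, 56.9, 114 and 837 CPM in S62A lymphomas and no read in splenomegaly masses. Rrp9 and Exosc6, which act in RNA processing, followed at 0.254 and 0.256. For Igf2 the nearest were Igf2os at 0.256, Mir675 at 0.276 and Chmp3 at 0.352. For Peg10 they were Spink13 at 0.249, then Zswim6 and Tshb, both at 0.269. For Sgce they were March8 at 0.284, Sept10 at 0.292 and Nupl2 at 0.328. The first 2 of these for Igf2 lie at the H19 and Igf2 locus and overlap Igf2 or H19. Among the members themselves, and with all symbols ranked, Igf2 was in place 263 for H19, H19 in place 31 for Igf2 and Sgce in place 272 for Peg10.

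Other imprinted genes were listed as well. Of 77, 75 were in the tables and 58 were tested. In T58A lymphomas 11 were called higher and 7 lower, with a median log2 fold change of 0.16 beside 0.01 over all genes. In S62A lymphomas the counts were 13 and 11, with a median of -0.24 beside 0.0, and in splenomegaly masses 18 and 7, with 0.45 beside -0.08. The shares of all genes called were 36.2%, 44.1% and 49.2%, in that order. Ddc, the decarboxylase that makes dopamine and serotonin, rose from 1.65 ± 0.363 CPM to 36.8 ± 6.19 in T58A and 61.5 ± 24.9 CPM in S62A lymphomas (edgeR adjusted p = 1.1e-05 and 3.85e-06). Airn, the noncoding RNA that silences Igf2r on the father's copy, fell from 8.3 ± 0.499 to 1.12 ± 0.679, 1.04 ± 0.182 and 1.75 ± 0.492 CPM in T58A lymphomas, S62A lymphomas and masses (edgeR adjusted p = 0.00119, 0.000781 and 0.00284).

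Around the Igf2 ligand, the list of the IGF axis and fetal growth had 21 tested genes, of which 3 were called higher and 4 lower in T58A lymphomas. The counts were 5 and 1 for S62A lymphomas, and 5 each way for splenomegaly masses. In that order, 36.2%, 44.1% and 49.2% of all genes were called. The receptor gene Igf1r held 9.7, 23.6 and 14.8 CPM in T58A lymphomas against 45.1 to 85.4 CPM in controls (edgeR adjusted p = 0.0161). The insulin receptor gene Insr fell from 83.0 ± 3.69 to 49.9 ± 11.7 and 47.5 ± 4.07 CPM in T58A and S62A lymphomas (edgeR adjusted p = 0.00691 and 0.00336). Igfbp7, a secreted binding protein of this family, rose from 44.5 ± 7.86 to 502 ± 77.8, 354 ± 68.4 and 240 ± 57.8 CPM in the 3 other groups (edgeR adjusted p = 4.48e-06, 6.23e-06 and 1.12e-05). Igf2bp3, a fetal protein that binds Igf2 RNA, was lower in masses, at 9.74 ± 3.21 CPM, than in controls at 27.1 ± 9.34, T58A lymphomas at 112 ± 45.3 and S62A lymphomas at 128 ± 24.3 CPM (edgeR adjusted p = 0.00544, 5.44e-05 and 2.49e-05).

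Of the list of proteins that keep imprints and methylate DNA, 18 genes were tested. In T58A lymphomas 3 were called higher and 5 lower. S62A lymphomas had 6 higher and 3 lower, and splenomegaly masses 0 higher and 9 lower. Shares of all genes called were again 36.2%, 44.1% and 49.2%, in that order. Dnmt1, which copies methylation at replication, fell in T58A lymphomas from 342 ± 17.9 to 215 ± 13.8 CPM (edgeR adjusted p = 0.00243). Uhrf1, which guides Dnmt1, fell from 340 ± 38.1 to 176 ± 21.1 CPM there and to 81.6 ± 10.8 CPM in masses (edgeR adjusted p = 0.0056 and 3.23e-05). Zfp445, which protects imprints in the early embryo, rose from 180 ± 7.84 to 311 ± 46.8 and 455 ± 97.5 CPM in T58A and S62A lymphomas (edgeR adjusted p = 0.0137 and 0.000619).

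A list of placental trophoblast genes was examined because H19, Igf2 and Peg10 are abundant in placenta. Without Peg10 it holds 14 genes, of which 5 were tested and 2 were called higher in each lymphoma group. Among all genes, 18.8% and 21.9% were called higher in T58A and S62A lymphomas. Its sum was 3.36 to 3.56 CPM in controls, 46.4 to 225 CPM in T58A lymphomas and 24.7 to 179 CPM in S62A lymphomas. Esx1, a homeobox gene of the placenta, made up most of it, at 79.0, 38.9 and 221 CPM and at 178, 62.3 and 23.7 CPM. Cdx2, the other gene called, held 5.33 ± 3.04 CPM in T58A and 1.78 ± 2.07 CPM in S62A lymphomas. Controls held 0.151 ± 0.0614 CPM of it (edgeR adjusted p = 0.00248 and 0.0121). Masses averaged 0.0177 CPM of Cdx2, and Esx1 averaged 0.0867 CPM in controls and 0.152 CPM in masses. These levels are under the filter's 0.588 CPM. Esx1 and Cdx2 thus passed the filter through the lymphomas, so a difference from controls was built into their selection. The median log2 fold change of the 5 tested genes was -0.14 in T58A and -0.8 in S62A lymphomas. Gcm1, Tpbpa, Prl3d1 and Prl2c2 were at 0 in every lymphoma and every splenomegaly mass, and Prl3d1 and Prl2c2 also in every control. Rtl1 was at 0 in both lymphoma groups. Hand1, Elf5, Phlda2 and Syna were at 0 in S62A lymphomas but not in T58A lymphomas.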

How the data were processed

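Values were taken from 12 libraries of thymic tissue. The authors deposited raw read counts per RefSeq transcript and FPKM values, which are scaled to length and depth. Per the submitters' processing notes, bcl2fastq 2.20.0.422, Bowtie 1.0.0, DESeq2 and build mm9 were used. How reads were counted, on which strand and with what rule for repeated matches, is not given in the sources used here. The tables hold 36141 transcript rows. Starts are printed counted from 1, because end minus start equalled the RefSeq hairpin length in 939 of 948 microRNA rows.

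The count test was run with edgeR 4.0.16 under R 4.3.3, using filterByExpr with a minimum count of 10, TMM factors, and glmQLFit and glmQLFTest with group as the only term over all 12 libraries. Benjamini-Hochberg adjustment covered all 15606 genes in each of 6 comparisons. Alternatives used DESeq2 1.42.0 and limma 3.58.1, the latter also on log2 of the deposited FPKM plus 0.1 or 1. A group at 0 was given a floor of 3 counts over its 3 libraries; floors cover counting error only. Replicate numbers only name libraries.

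The members, lists and tests were chosen with earlier results of these data known. All 10 members are named. From other lists the text names genes among the 2 risen and 2 fallen of smallest adjusted p, and from neighbours those called with 10 CPM in either group. By likeness it names the 3 nearest, without symbols that start with Gm and a digit or end in Rik. The Y-linked genes, Xist, Cd3e and per-library values of Sim2, Igf1r, Igf2os and Ppp1r9a were added after the data were seen. The fit on libraries with Xist under 100 CPM and Ddx3y over 100 CPM was also added after the data were seen. A first version of it left out T58A lymphoma 1 and S62A lymphoma 3 for their high H19. It was run and then dropped, because it chose libraries by a measured outcome. The version kept leaves out the same lymphomas and also splenomegaly masses 1 and 3, so it is not blind to that first result. Its lone splenomegaly library is assumed to vary like the other groups.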

Additional observations from a re-analysis of the deposited data

Results flagged for a closer look

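For 4 genes the change against control differed between groups by the test of the difference itself, edgeR's quasi-likelihood test of splenomegaly masses against a lymphoma group, in which the shared controls cancel. Against S62A lymphomas the difference in log2 fold change was -8.54 for H19, -5.01 for Igf2 and -8.17 for Peg10, with every mass below every lymphoma for H19, Igf2 and Peg10. Against T58A lymphomas it was -8.99 for H19, -6.94 for Igf2, -10.99 for Peg10 and -1.55 for Sgce, and here too no mass reached a lymphoma. With 1 library left out, the differences from S62A lymphomas ran from -10.2 to -6.26 for H19, -5.52 to -2.3 for Igf2 and -8.95 to -7.54 for Peg10. Those from T58A lymphomas ran from -10.6 to -7.46 for H19, -7.43 to -4.22 for Igf2, -11.8 to -10.4 for Peg10 and -1.82 to -1.26 for Sgce. Since Peg10 passed the filter through the lymphomas, its difference from the masses was built into its selection. Against S62A lymphomas, limma voom called neither Igf2 nor Peg10 (adjusted p = 0.234 and 0.116). The call of Igf2 there was also lost without S62A lymphoma 3 (edgeR adjusted p = 0.108). B cell markers summed to 2033 to 2700 CPM in the masses and 30.5 to 437 CPM in the lymphomas, and the part of this difference in cell content was not tested.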

How the results depend on the processing

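No paired analysis was possible because the labels give library codes and no replicate numbers shared between groups. Of 1241 values of single genes under alternatives, 1099 kept their direction and their side of the threshold, 24 lost the call, 54 gained it and 64 turned direction. The alternatives were 11 settings, 12 libraries left out in turn and the low-Xist fit. None of the turned values was called in the reported fit. Counts of called genes with 1 library left out ran from 4 to 6 against 5 reported (T58A against control), 4 to 6 against 5 (S62A against control), 1 to 4 against 2 (splenomegaly against control), 0 to 2 against 0 (S62A against T58A), 2 to 5 against 3 (splenomegaly against S62A) and 3 to 6 against 4 (splenomegaly against T58A). In the same order, 24.3% to 40.1%, 32.1% to 44.7%, 37.8% to 52.0%, 0.679% to 4.9%, 45.6% to 53.9% and 36.3% to 48.6% of all genes were called. Splenomegaly against control gave 1 call with a minimum count of 50 and 5 with only the 2 groups compared, where 53.7% and 62.8% of all genes were called. T58A against control with title code H only gave 1 call, Peg10, beside 2.60% of all genes, with a lone control assumed to vary like the other libraries. With low-Xist libraries only, S62A against T58A lymphomas gave 3 calls, beside 4.47% of all genes. For all genes, S62A against T58A lymphomas gave 492 calls as reported, 1754 by DESeq2, 4 by limma voom and 0 with only these groups. The causes were not tested.

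Turned values, as log2 differences, were these. Cdkn1c in S62A lymphoma against control (0.0156 reported) was -0.0191 with RLE factors, -0.0847 with library size only, -0.00187 unfiltered, -0.0127 with a minimum count of 50, -0.0198 by DESeq2, -0.444 by voom, -0.0208 with summed rows, -0.691 and -0.509 on FPKM plus 0.1 and 1, and -1.24 to 0.507 with 1 library left out. Cdkn1c between S62A and T58A ran from -1.63 to 0.113 with 1 left out. Peg3 in T58A against control (0.0187) was -0.00502 with RLE, -0.000218 with library size only, -0.00172 unfiltered, -0.00371 by DESeq2, -0.734 by voom, -0.608 with code H only and -1.25 to 0.592 with 1 left out. By voom, Peg3 was -1.45 (S62A against control), -0.718 (S62A against T58A), 1.45 (splenomegaly against S62A) and 0.732 (splenomegaly against T58A), Meg3 -0.75, 1.06 and 0.31 in the last 3 of these, Mest -0.268 (S62A against T58A) and Igf2 -0.008 (splenomegaly against control). Meg3 on FPKM plus 0.1 was -0.479 (S62A against T58A) and 0.418 (splenomegaly against S62A), and -0.0753 with 1 added in the former.

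With low-Xist libraries, Igf2 was -0.774 in splenomegaly against control, Meg3 -2.46, 2.57 and 0.11 (S62A against T58A, splenomegaly against S62A and against T58A), Mest -0.167, -0.101, -0.918 and 0.066 (S62A and splenomegaly against control, S62A against T58A, splenomegaly against S62A) and Peg3 -0.93, 0.218, -1.51 and 1.15 in the same order. With 1 library left out, H19 ran from -2.72 to 1.08 and Igf2 from -4.64 to 0.798 between S62A and T58A. There Meg3 ran from -1.99 to 1.57, Mest from -0.827 to 1.57 and Peg3 from -0.934 to 1.92. Meg3 ran from -1.22 to 1.61 (splenomegaly against S62A) and -1.1 to 1.08 (against T58A), Mest from -0.156 to 2.24 (S62A against control) and -2.07 to 0.332 (splenomegaly against S62A). Peg3 ran from -0.914 to 1.27 (S62A against control), -0.665 to 0.115 (splenomegaly against control), -1.63 to 0.55 (splenomegaly against S62A) and -0.957 to 0.923 (splenomegaly against T58A).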
